A study of Mus musculus with 33 samples.

Results

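The outer segment of photoreceptors and the matrix around it draw on 10 genes that are listed here as shared by rods and cones, and their transcripts were followed through a culture of mouse retinal progenitor cells: Prph2, Rp1, Tulp1, Unc119, Aipl1, Pdc, Rcvrn, Slc24a1, Impg1 and Impg2. The genes were chosen by symbol, as 10 of the 47729 genes in the count tables. The symbol Rp1 stands on 2 rows, and the second of these, ENSMUSG00000109048, held 0 counts in all 33 libraries, so values are those of the first row. Reads on exons that both rows share may not have been counted to either row, since the counting setting is not given in the sources used here. All 10 genes passed the filter on low counts that left 18150 genes for testing.

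The cells came from C57BL/6J retina at embryonic day 14, with no other allele named, and RNA of whole cultures was sequenced from a low-input preparation. At day 0 there were untreated cells, cells primed towards cones with COCO protein, an extracellular inhibitor of several growth factor pathways, and cells primed towards rods with taurine and retinoic acid. Cone cultures, given COCO, and rod cultures, given taurine and retinoic acid, were then taken at days 5, 12, 21 and 35. Each of the 11 groups held 3 libraries, and nothing in the labels says whether the 3 came from separate embryos or cultures, so p-values measure only the spread between these libraries, which may be technical. The labels point elsewhere for the culture protocol, so how long each factor was present is not known here, and untreated cells were taken at day 0 alone.

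The outer segment is the light-sensing part of rods and cones, a modified cilium packed with membrane discs that is rebuilt throughout life from proteins carried up from the cell body. In the mouse retina most rods are born around birth and grow outer segments in the following weeks, whereas photoreceptor precursors switch on part of the gene set earlier. Loss of any of several of these genes causes retinal degeneration in people or mice. In RNA from whole cultures, fewer photoreceptors and less RNA per photoreceptor cannot be told apart.

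Each gene has its own role in the outer segment. Positions are on mouse genome build GRCm38, and each row counts the exons of a protein-coding gene whose exons overlap those of no other gene in GENCODE release M21; the identifier of the second Rp1 row had no match there. Prph2, the tetraspanin that bends the rim of each disc, lies at chr17:46910459-46924933 on the plus strand. Rp1, a microtubule-binding protein of the axoneme that keeps discs in register, lies at chr1:3999557-4409241 on the minus strand. Tulp1, which helps carry proteins into the outer segment, lies at chr17:28351515-28365182 on the minus strand. Unc119, a lipid-binding carrier of transducin that is also made outside the eye, lies at chr11:78343482-78349164 on the plus strand. Aipl1, a chaperone needed to fold the phosphodiesterase of phototransduction, lies at chr11:72027963-72037509 on the minus strand. Pdc encodes phosducin, which binds the beta and gamma subunits of transducin, and lies at chr1:150319417-150333906 on the plus strand. Rcvrn encodes recoverin, the calcium sensor that restrains rhodopsin kinase, and lies at chr11:67695326-67703333 on the plus strand. Slc24a1, the sodium, calcium and potassium exchanger of the rod outer segment, lies at chr9:64922861-64951607 on the minus strand. Impg1 and Impg2 encode proteoglycans of the matrix around the outer segments, and lie at chr9:80313330-80465481 on the minus strand and at chr16:56204313-56273756 on the plus strand.

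Since the genes varied together across libraries (correlations are given after the time course), their promoters were searched for the sites of 2 photoreceptor transcription factor families. RefSeq promoters of 300 bases, 250 before and 50 after the start, were matched for 8 of the 10 genes (build GRCm38.p6), with 10 promoter windows in all since Unc119 has 3. On either strand TAATCC, the site of the CRX and OTX family, stood in 2 of the 10 windows, that of Aipl1 and 1 of Unc119 that starts within the gene, against 7.06% of all 32851 promoters. TGCTGAC, the core of the NRL and MAF site, stood in 0 of the 10 windows, against 4.67%. The shorter TAATC, which lies within TAATCC and was searched only after the sequences had been seen, stood in 6 of the 10 windows, 1 for each of 6 genes, against 22.0%. The 4 stretches printed here were chosen because they hold that core ahead of a gene whose mean was highest in cone culture at day 5, with the core in capitals as TAATC or as its reverse complement GATTA.
Aipl1, chr11:72037510-72037759, minus strand: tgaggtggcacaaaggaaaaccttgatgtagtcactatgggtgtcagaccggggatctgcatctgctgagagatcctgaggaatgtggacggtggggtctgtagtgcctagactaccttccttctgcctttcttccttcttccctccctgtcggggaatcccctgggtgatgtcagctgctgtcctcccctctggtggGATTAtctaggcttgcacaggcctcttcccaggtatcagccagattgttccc
Prph2, chr17:46910228-46910458, plus strand: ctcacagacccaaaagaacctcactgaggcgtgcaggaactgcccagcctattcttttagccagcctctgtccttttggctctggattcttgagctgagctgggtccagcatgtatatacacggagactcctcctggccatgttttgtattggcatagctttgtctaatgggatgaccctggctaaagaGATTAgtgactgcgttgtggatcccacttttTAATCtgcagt
Impg2, chr16:56204063-56204312, plus strand: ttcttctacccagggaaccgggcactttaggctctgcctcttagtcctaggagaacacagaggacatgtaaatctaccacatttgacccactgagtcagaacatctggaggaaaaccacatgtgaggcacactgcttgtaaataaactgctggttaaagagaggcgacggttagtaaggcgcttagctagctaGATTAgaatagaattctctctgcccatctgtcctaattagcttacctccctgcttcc
Impg1, chr9:80465482-80465688, minus strand: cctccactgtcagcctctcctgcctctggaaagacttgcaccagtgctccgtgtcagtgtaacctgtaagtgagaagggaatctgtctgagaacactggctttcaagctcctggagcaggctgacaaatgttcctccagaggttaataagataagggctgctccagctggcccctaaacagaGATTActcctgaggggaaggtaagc
The Aipl1 stretch holds 1 match, which is part of a full TAATCC. The Prph2 stretch holds 2, and the Impg2 and Impg1 stretches hold 1 each. The windows of Pdc and Slc24a1 held 0, and the mean of Pdc was also highest in cone culture at day 5. A match describes letters in this window and says nothing about binding, which was not measured.

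Gene counts ran from 7511837 to 19166442 per library (median 12985662). Levels are given as CPM, counts scaled to the TMM-adjusted library size. A gene with 0 counts could still be present at up to 3 counts, a floor of 0.174 to 0.407 CPM depending on the library. Here 4 libraries are described as standing apart from the other 2 of their group in these genes. Summed over the 10 genes, rod day 12 replicate 2 held 2271 CPM against 60.7 and 138 in the other 2, and cone day 12 replicate 2 held 994 against 134 and 161. Cone day 21 replicate 1 held 24.7 CPM against 259 and 224, and cone day 35 replicate 1 held 24.7 against 82.9 and 42.8. Among the primed cells, cone primed replicate 2 was also low, at 414 CPM against 968 and 957. So was rod primed replicate 3, at 600 CPM against 1438 and 1222.5. Over all tested genes, the central 95% of log2 differences from the mean of the other 2 ran from -1.39 to 2.22 in rod day 12 replicate 2 and from -1.03 to 1.58 in cone day 12 replicate 2. By correlation over all tested genes, rod day 12 replicate 2 lay nearest to the rod day 5 group (r = 0.963 against 0.949 for its own), and cone day 21 replicate 1 nearest to the cone day 35 group (0.977 against 0.966). Rod day 12 replicate 1 likewise lay nearest to rod day 21 and cone day 35 replicate 2 nearest to cone day 21. Results that rest on these libraries are given with and without them.

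As a sum, markers of the labelled cell type were detected throughout, which does not show how many progenitors remained. The 12 retinal progenitor markers summed to 1249 to 1414 CPM in the untreated cells and stayed between 980.1 and 2069 CPM in every library, with Fgf15 at 0 in 3 of the later groups. The untreated cells also held 1536 to 1994 CPM of 6 photoreceptor precursor markers, Crx and Otx2 among them. At day 35 the precursor markers summed to 11.8 to 53.6 CPM. The sum of 8 Muller glia markers was 279.7 to 361 CPM in untreated cells and 1924 to 3721 CPM at day 35. The sum of 6 mesenchyme markers was 1.70 to 20.2 CPM in untreated cells, and 493 to 3603 CPM in cone and 213 to 701 CPM in rod cultures at day 35. The part of these shifts in the values that follow was not tested.

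**Figure D1:**
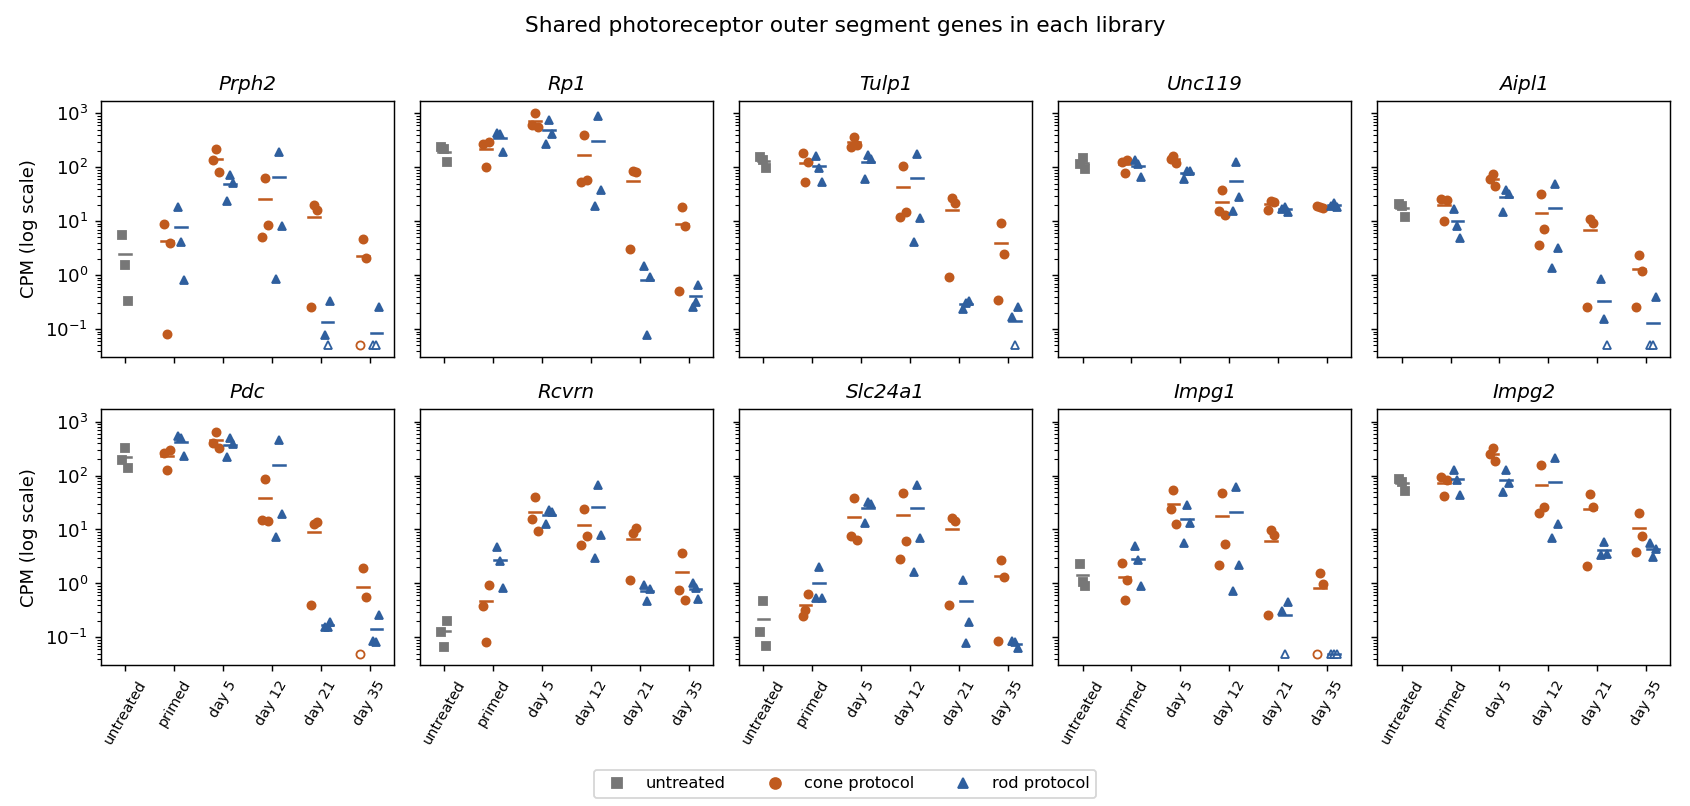
CPM of the 10 genes in each library on a log axis, with the untreated and primed cells of day 0 at the left and days 5 to 35 to the right. Each symbol is 1 library (squares untreated, circles cone protocol, triangles rod protocol), short lines are means of 3, and open symbols at the bottom of a panel mark libraries with 0 counts. Most genes are highest at day 5, spread widely at day 12 and are low in rod cultures at days 21 and 35, where Impg2 stays at 3.15 CPM or more and Unc119 at 15.1 CPM or more.

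At day 0 the genes were split into 2 sets by level: 6 read 12.1 CPM or more in every untreated library, and 4 read 5.50 CPM or less. Pdc read 196, 324 and 141 CPM in the 3 untreated libraries. Rp1 read 242, 219 and 125 CPM there, and Unc119 read 117, 147 and 94.1 CPM. Tulp1 (97.6 to 153 CPM), Impg2 (51.7 to 88.1) and Aipl1 (12.1 to 21.0) completed the first set. In the second set Prph2 ranged from 0.340 to 5.50 CPM and Impg1 from 0.883 to 2.30. Slc24a1 had 1, 7 and 1 counts in the 3 untreated libraries and Rcvrn had 1, 1 and 3, so 5 of these 6 values are at or under the floor. Per kilobase of exon, Pdc was the highest in untreated cells at 65.8 ± 28.1 CPM per kb (SD, n = 3), followed by Unc119 at 48.9 ± 10.9, Tulp1 at 19.4 ± 4.29 and Rp1 at 15.9 ± 5.01. The SDs of Pdc and Unc119 overlap, as do those of Tulp1 and Rp1.

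Priming changed no gene of the 10 past the threshold of an adjusted p under 0.05 (Benjamini-Hochberg, edgeR quasi-likelihood test). Cone priming gave 0 calls at 10 genes and 0.0% over all genes, and 0 of the 10 had an unadjusted p under 0.05. Rod priming gave 0 of 10 against 10.3% of all tested genes, with 1 unadjusted p under 0.05, that of Rcvrn. Rcvrn read 4.75, 2.62 and 0.808 CPM in the 3 rod primed libraries, all above the untreated ones, and the log2 fold change was 4.19 ± 1.51 (SE; adjusted p = 0.0771). Slc24a1, at 0.543, 2.02 and 0.539 CPM, was also above every untreated library, at 2.10 ± 1.95 on the log2 scale (adjusted p = 0.56). These were the only 2 of the 10 whose libraries did not overlap the untreated ones, a pattern that 17.6% of all genes showed in that direction. Between the primed groups 0 of the 10 were called either way against 7.27% of all genes, with a median log2 difference, cone minus rod, of -0.76 against -0.01 over all genes.

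By day 5 the 4 genes that had been low had risen in cone cultures. Of the 10 genes, 4 were called higher than in cone primed cells and 0 lower, against 22.3% of all genes called (12.2% higher). Voom with sample weights called 7 of the 10 and a fit on the compared libraries alone 9. Rcvrn, with 15.4, 39.3 and 9.36 CPM at day 5 against 0.378, 0.0808 and 0.943 in primed cells, rose by 5.56 ± 1.14 on the log2 scale (adjusted p = 0.000991) and was called under all 14 alternatives that used counts. Prph2 went from 8.94, 0.0808 and 3.88 CPM to 138, 218 and 80.6 CPM (log2 5.18 ± 1.44, adjusted p = 0.0106). The groups did not overlap, and per kilobase of exon Prph2 moved from rank 7 of the 10 genes in primed cells to rank 4 (48.5 ± 22.9 CPM per kb, SD, n = 3).

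Slc24a1 rose from 0.252, 0.323 and 0.629 CPM to 7.68, 37.8 and 6.45 (log2 5.39 ± 1.45, adjusted p = 0.00875). Impg1 rose from 2.39, 0.485 and 1.15 CPM to 23.6, 53.1 and 12.4 (log2 4.55 ± 1.38, adjusted p = 0.019). Leaving out single libraries ended 3 of the 4 calls and left that of Rcvrn. Without cone day 5 replicate 2, the highest for all 10 genes, the adjusted p was 0.0687 for Impg1 and 0.0589 for Slc24a1, so 2 genes were called. Without cone primed replicate 2, the lowest for 9 of the 10 genes (all but Slc24a1), 1 gene was called, with 0.0962 for Impg1, 0.0502 for Slc24a1 and 0.0616 for Prph2. Impg1 was also lost without cone primed replicate 3 (0.0674). Of the 6 genes already present at day 0, 0 were called: Rp1 read 612, 1029 and 553 CPM at day 5 against 265, 101 and 291 in primed cells (log2 1.74 ± 1.01, adjusted p = 0.227). Impg2 (1.77 ± 0.88), Aipl1 (1.58 ± 0.88), Tulp1 (1.27 ± 0.91) and Pdc (1.02 ± 0.88) had adjusted p values from 0.152 to 0.435. For 9 of the 10 genes every cone day 5 library was above every cone primed one, against 23.5% of all genes in that direction, and Unc119 was the exception (119 to 160.4 CPM against 79.9 to 134). The median log2 fold change of the 10 was 1.76 against 0.05 over all genes.

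Rod cultures at day 5 showed 2 of the 10 genes called higher than in rod primed cells and 0 lower, against 17.5% of all genes called (8.76% higher). Slc24a1 read 13.0, 31.7 and 29.7 CPM against 0.543, 2.02 and 0.539 in primed cells, a log2 fold change of 4.56 ± 1.28 (adjusted p = 0.0146). Rcvrn read 12.7, 23.0 and 21.2 CPM against 4.75, 2.62 and 0.808 (log2 2.86 ± 0.91, adjusted p = 0.0305). Without rod primed replicate 3, the lowest for all 10 genes, both calls were lost (adjusted p = 0.13 for Rcvrn and 0.0685 for Slc24a1). Only 1 call was lost without rod primed replicate 1 (Slc24a1, 0.0608), rod primed replicate 2 (Rcvrn, 0.0904), rod day 5 replicate 2 (Rcvrn, 0.082) or rod day 5 replicate 3 (Rcvrn, 0.0619). Prph2, at 23.6, 72.5 and 50.1 CPM against 18.4, 4.13 and 0.808, did not overlap its primed libraries but had an adjusted p of 0.149. With Rcvrn, Slc24a1 and Impg1 it made 4 genes higher without overlap, against 21.0% of all genes. The genes present at day 0 had log2 fold changes of -0.03 for Impg2, -0.20 for Pdc, -0.43 for Unc119, 0.26 for Tulp1, 0.49 for Rp1 and 1.54 for Aipl1.

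**Figure D2:**
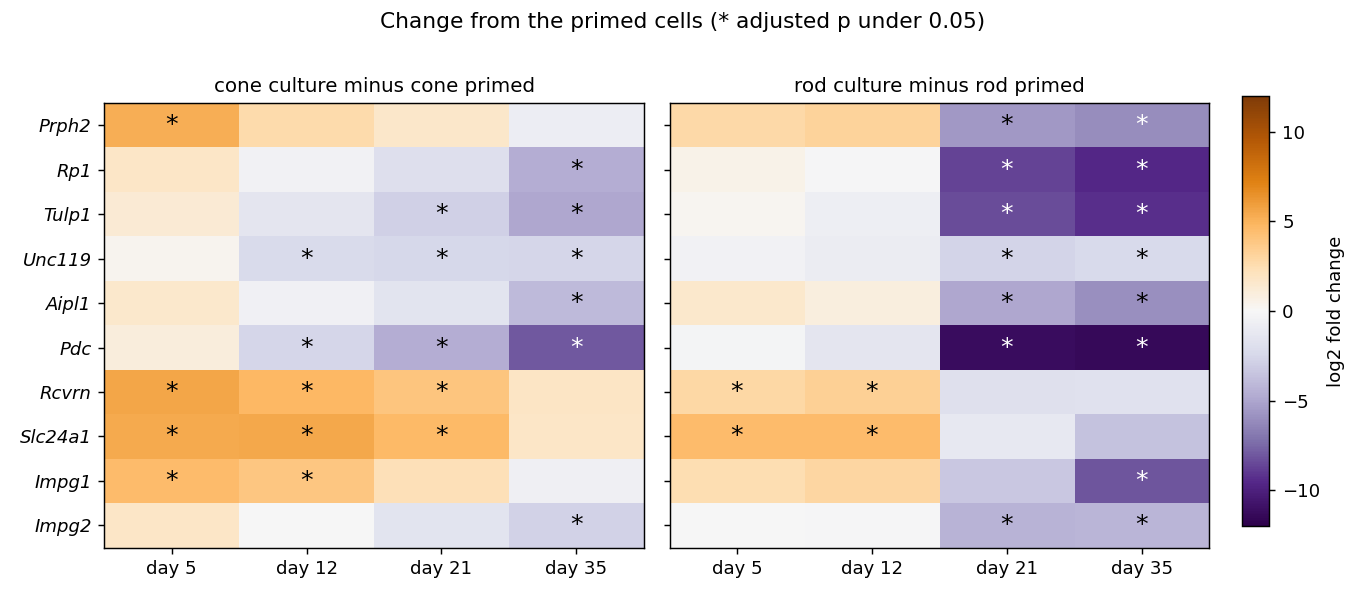
Log2 fold change of each gene at days 5, 12, 21 and 35 from the primed cells of the same protocol, cone at the left and rod at the right, orange for higher and purple for lower, with an asterisk where the adjusted p was under 0.05. In cone cultures the asterisks on orange sit with Prph2, Rcvrn, Slc24a1 and Impg1, and in rod cultures the purple deepens at day 21, to -11.21 for Pdc.

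Set side by side at day 5, cone and rod cultures did not differ past the threshold in any of the 10 genes, against 9.28% of all genes called, and 0 of the 10 had an unadjusted p under 0.05. The point estimates were higher in cone culture for 9 of the 10, with a median of 0.89 against 0.01 over all genes. For 5 of them, Prph2, Tulp1, Unc119, Aipl1 and Impg2, all 3 cone libraries were above all 3 rod libraries, against 16.8% of all genes in that direction. The widest of these was Impg2, with 246, 318 and 183 CPM in cone culture against 49.5, 125 and 72.7 in rod culture (log2 1.59 ± 0.87, adjusted p = 0.286). The fit on the 6 compared libraries alone and voom with sample weights each called 5 of the 10. Slc24a1 was the gene with the opposite sign (-0.53 ± 0.97, adjusted p = 0.807).

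At day 12 the 3 libraries of each culture differed widely in these genes. The median coefficient of variation of the 10 genes was 115% in cone culture and 152% in rod culture at day 12, against 17.5% and 21.8% for all tested genes, and against 35.7% and 44.5% for the 10 genes at day 5. In both cultures replicate 2 was the highest library for all 10 genes. Rp1 read 52.7, 393 and 58.0 CPM in cone culture, and 19.2, 877 and 37.9 CPM in rod culture. Pdc read 14.7, 87.5 and 14.4 CPM in cone culture, and 7.35, 449 and 19.1 CPM in rod culture. Rod replicate 2 was within or above the range of the rod day 5 libraries in both genes. Cone replicate 2 was below the lowest cone day 5 library, and the other 2 libraries of each culture were lower still.

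The same 2 libraries were high in other photoreceptor genes and in markers of some other cell types. In rod day 12 replicate 2 the 10 genes were above the mean of the other 2 libraries by 2.54 to 6.03 on the log2 scale (median 4.55), the 8 rod photoreceptor markers by 4.28 to 6.24 and the 6 precursor markers by 1.07 to 3.86. The 12 progenitor markers differed there by a median of 0.16, and the 6 mesenchyme markers were all lower, by a median of -1.25. The median was 2.31 for 6 microglia markers, 1.95 for 8 retinal ganglion cell markers, 1.09 for 6 bipolar cell markers and 0.57 for 9 amacrine and horizontal cell markers. In cone day 12 replicate 2 the median differences were 2.80 for the 10 genes, 3.07 for the rod markers, 1.46 for the precursor markers and -0.0049 for the progenitor markers, with 2.03 for bipolar, 0.65 for amacrine and horizontal, 0.49 for retinal ganglion cell and -0.10 for microglia markers. The part of these other genes in the day 12 results was not tested.

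With all libraries in, 0 of the 10 genes differed between cone and rod culture at day 12 against 10.1% of all genes, 2 had an unadjusted p under 0.05 (Unc119 and Pdc), and all 10 point estimates were lower in cone culture (median -0.72 against -0.01). Without both of the replicate 2 libraries, which were picked for being high in these very genes, 0 of the 10 were again called, against 6.3% of all genes, and 9 of the 10 estimates were higher in cone culture. Without rod day 12 replicate 2 alone, Impg2 turned to 2.80 higher in cone culture on the log2 scale, with an adjusted p of 0.0424. Leaving out other single libraries gave calls the other way. Unc119 and Pdc were called lower in cone culture without cone day 12 replicate 2 (-1.96 and -3.45, adjusted p = 0.0148 and 0.0438) or rod day 12 replicate 1 (-1.77 and -2.59, 0.00374 and 0.0359), and Unc119 alone without rod day 12 replicate 3 (-1.63, 0.0368).

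From day 5 to day 12, 3 of the 10 genes were called lower in cone cultures and 0 higher, against 43.2% of all genes called (18.6% lower). Pdc fell by 3.55 ± 0.97 on the log2 scale (adjusted p = 0.00409). Unc119 fell by 2.66 ± 0.47 (adjusted p = 5.63e-05), from 145, 160.4 and 119 CPM to 15.7, 38.0 and 13.2. Tulp1 fell by 2.72 ± 0.96 (adjusted p = 0.0232), and this call was lost without cone day 12 replicate 1 (0.101) or replicate 3 (0.0973) or cone day 5 replicate 2 (0.051). In 7 genes, the 3 called with Prph2, Rp1, Aipl1 and Impg2, every day 12 library was below every day 5 library, against 25.3% of all genes. Rod cultures gave 0 of 10 from day 5 to day 12, with 0 unadjusted p under 0.05, against 18.3% of all genes. The 2 day 12 libraries that stood apart were picked for being high in these genes, so leaving them out lowers day 12 by construction. Without them 9 of the 10 genes were called lower at day 12 than at day 5 in each culture. The exceptions were Slc24a1 in cone culture and Rcvrn in rod culture. Of all genes, 43.8% were called in cone culture (19.5% lower) and 24.7% in rod culture (9.64% lower). Leaving out cone day 12 replicate 2 alone gave 7 in cone culture, and rod day 12 replicate 2 alone gave 8 in rod culture. In the fit without both libraries Rp1 fell by 3.72 in cone culture and by 4.07 in rod culture on the log2 scale, and Impg2 by 3.42 and by 3.08.

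Day 12 was also set against primed cells. In cone culture 3 of the 10 were higher, Rcvrn (4.78 ± 1.15), Slc24a1 (5.51 ± 1.46) and Impg1 (3.85 ± 1.37), and 2 were lower, Unc119 (-2.34 ± 0.47) and Pdc (-2.53 ± 0.93), against 48.4% of all genes called (26.7% higher, 21.7% lower). Rcvrn and Slc24a1 were higher without overlap, against 30.5% of all genes, and Unc119 and Pdc lower, against 26.3%. In rod culture Rcvrn (3.31 ± 0.92) and Slc24a1 (4.58 ± 1.28) were higher and 0 were lower, against 42.4% of all genes called (24.2% higher). Both rod calls ended without rod day 12 replicate 2 (adjusted p = 0.306 and 0.191), and 5 others were then lower. Without both high libraries, a choice that lowers day 12 by construction, 8 of the 10 were called in cone culture. Rcvrn and Slc24a1 were higher and 6 lower, against 46.7% of all genes (25.7% higher, 21.1% lower). In rod culture 6 were then lower, against 41.8% (18.7% lower).

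**Figure D3:**
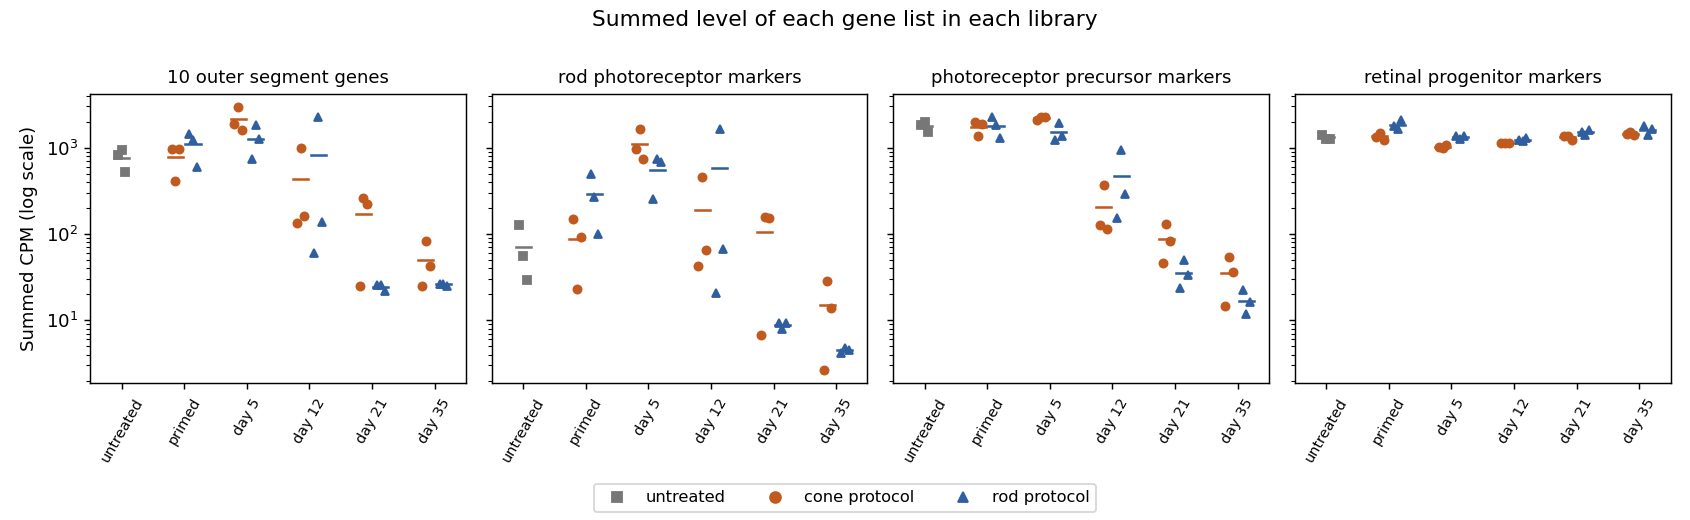
Summed CPM per library on a log axis for the 10 outer segment genes, 8 rod photoreceptor markers, 6 photoreceptor precursor markers and 12 retinal progenitor markers, with symbols and short lines (means of 3) as in the plot of single genes. At day 12 one library of each culture lies far above the other 2 in the first 3 panels, while the progenitor markers stay between 1133 and 1276 CPM there.

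At day 21 cone and rod cultures differed past the threshold. Of the 10 genes, 6 were called higher in cone culture and 0 lower, against 9.0% of all genes called (5.86% higher), and the median log2 difference of the 10 was 4.49 against 0.03 over all genes. Rp1, the axonemal protein, read 3.02, 85.2 and 81.8 CPM in cone culture and 1.47, 0.0772 and 0.913 in rod culture (log2 6.10 ± 1.46, adjusted p = 0.00778). Tulp1 read 0.918, 27.1 and 21.5 CPM against 0.232, 0.309 and 0.326 (5.82 ± 1.59, adjusted p = 0.0198). In both genes cone replicates 2 and 3 were far above the rod libraries and replicate 1 was above them by much less.

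Pdc read 0.394, 12.7 and 13.5 CPM in cone culture at day 21 and 0.154, 0.154 and 0.196 in rod culture, the latter from 2 to 3 counts a library (5.70 ± 1.76, adjusted p = 0.041). Rcvrn read 1.18, 8.73 and 10.4 CPM against 0.927, 0.463 and 0.782 (3.25 ± 1.03, adjusted p = 0.0456). These 4 genes did not overlap between the cultures, against 14.5% of all genes higher without overlap. Slc24a1 (0.394, 16.0 and 14.4 CPM against 1.16, 0.0772 and 0.196, adjusted p = 0.0387) and Aipl1 (0.262, 10.9 and 9.33 against 0.849, 0.154 and 0, adjusted p = 0.0399) were called although cone replicate 1 lay below rod replicate 1.

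Prph2 (6.35 ± 2.13, adjusted p = 0.0612), Impg1 (4.51 ± 1.66, 0.0929) and Impg2 (2.56 ± 1.02, 0.118) had the same sign at day 21 without passing. Unc119 read 15.9, 23.4 and 22.4 CPM in cone culture and 17.0, 18.8 and 15.1 in rod culture (0.29 ± 0.47, adjusted p = 0.779). The number of calls depended on single libraries. It was 0 without rod day 21 replicate 2, 1 without cone replicate 2 or rod replicate 3, 2 without cone replicate 3, 3 without rod replicate 1 and 7 without cone replicate 1, which stood apart, while voom and the fit on the compared libraries each gave 2. Summed rod photoreceptor markers were at 6.82 to 158 CPM in cone culture and 7.95 to 9.27 CPM in rod culture at day 21. Other marker sums were higher in cone culture without overlap: microglia at 14.4 to 37.8 against 0.618 to 2.35 CPM, mesenchyme at 401 to 621 against 119 to 282, endothelium at 219.6 to 245.9 against 64.2 to 139.7, Muller glia at 2037 to 2516 against 1161 to 1588, astrocyte at 301.5 to 454.6 against 147 to 288, amacrine and horizontal cell at 267 to 323 against 188 to 192, and cone photoreceptor at 24.3 to 34.2 against 11.0 to 22.5. The sums of retinal ganglion cell (27.7 to 49.5 against 55.4 to 86.1 CPM) and progenitor markers (1226 to 1360.5 against 1415 to 1599) were lower there without overlap. The part of these cell types in the result was not tested. Rp1 was called under 12 of 14 alternatives that used counts, with log2 differences from 5.60 to 6.74, and the other 5 genes under 7 to 9 of 13 or 14.

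**Figure D4:**
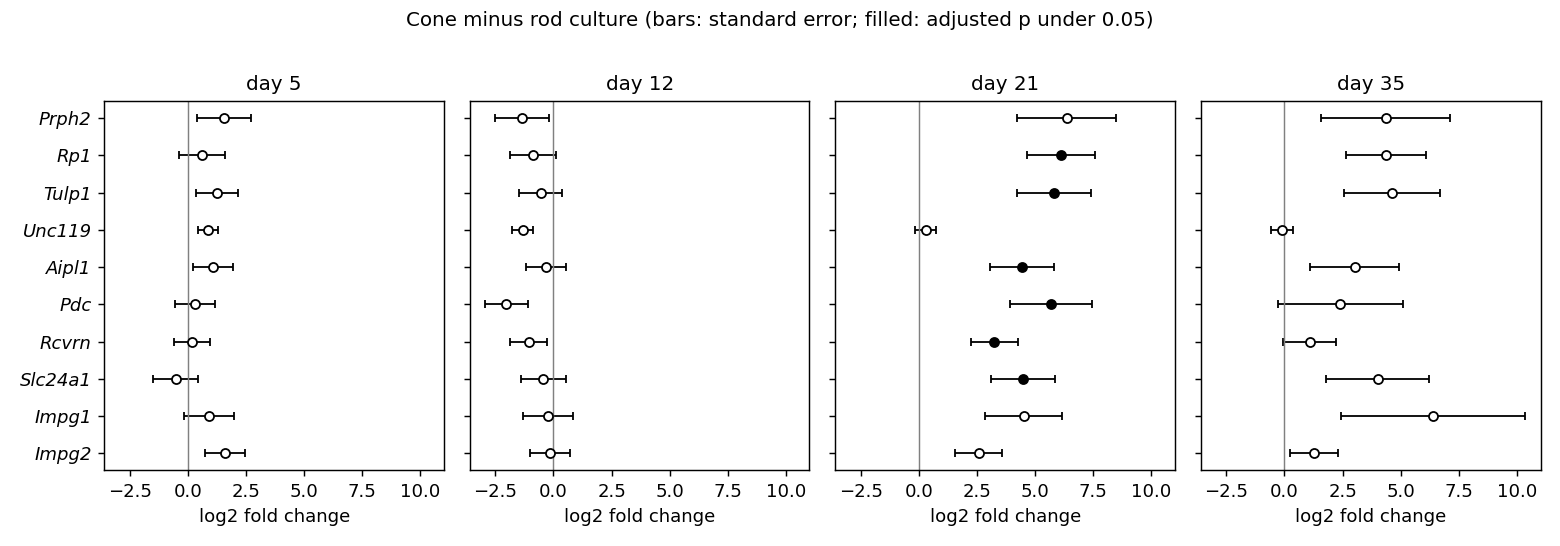
Log2 fold change of cone over rod culture for each gene at days 5, 12, 21 and 35, with standard errors as bars and filled points where the adjusted p was under 0.05. The points run from -0.53 to 1.59 at day 5 and from -2.02 to -0.16 at day 12, none of them filled. At day 21, 6 are filled, at 3.25 to 6.10. At day 35 none is filled, and the points lie right of 0 for all but Unc119. The day 35 point of Impg1 is a fitted value against 0 counts in all 3 rod libraries.

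At day 35, 0 of the 10 genes were called between the cultures, against 12.3% of all genes, and 2 had an unadjusted p under 0.05. DESeq2 called 4 of the 10. Tulp1 and Slc24a1 were higher in cone culture without overlap, against 16.3% of all genes. The median log2 difference was 3.52 as fitted, and 3.25 with Impg1 set to its bound, given below. Rp1 read 0.512, 18.1 and 8.23 CPM in cone culture and 0.255, 0.323 and 0.646 in rod culture (4.36 ± 1.73, adjusted p = 0.103). Impg1 had 0, 18 and 12 counts in cone culture and 0 counts in all 3 rod libraries, so the summed level was at least 11.1-fold higher in cone culture, against a floor of 3 counts over the group. Slc24a1 had 1, 32 and 16 counts against 1 in each rod library, a ratio of 18.1 (95% counting interval 5.84 to 90.8). The bound and the interval pool the libraries of a group and leave out the spread between them. Rcvrn differed little, at 0.768, 3.69 and 0.484 CPM against 1.02, 0.809 and 0.516.

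Over the mean of days 5 to 35, 6 of the 10 genes were higher in cone culture and 0 lower, against 27.8% of all genes called (15.6% higher): Rp1 (2.54 ± 0.67, adjusted p = 0.0052), Tulp1 (2.78 ± 0.74, 0.00546), Aipl1 (2.06 ± 0.66, 0.0209), Impg2 (1.32 ± 0.47, 0.0386), Prph2 (2.73 ± 0.99, 0.0397) and Impg1 (2.90 ± 1.07, 0.0461). Of 33 alternatives that used counts, Rp1 and Tulp1 were called under 32, with voom the exception (adjusted p = 0.0548 and 0.0537), and Aipl1 under 31. Impg2 was called under 19, Prph2 under 16 and Impg1 under 15. The count was 2 without cone day 12 replicate 2 or cone day 35 replicate 2 and 9 without rod day 12 replicate 2. It was 3 without cone day 5 replicate 1 or 2, cone day 21 replicate 2 or 3, rod day 5 replicate 1 or 3, rod day 12 replicate 3, rod day 21 replicate 3, or rod day 35 replicate 2 or 3. Without both of the high day 12 libraries it was 9, against 28.8% of all genes called (16.3% higher). For Unc119 the mean difference was -0.07 ± 0.23 (adjusted p = 0.864). Impg1 had 0 counts in all 3 rod day 35 libraries, so its fitted mean difference rests on an unmeasured ratio there. Prph2 had 6 and 4 counts over the rod libraries of days 21 and 35. The mean pools unlike days: all 10 estimates were lower in cone culture at day 12, all 10 higher at day 21 and 9 higher at days 5 and 35. Only day 21 gave calls when taken alone.

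Tests of a change in the difference itself called few of the genes. An F test of whether cone minus rod varied over the days called 1 of the 10, Rp1 (adjusted p = 0.0325), against 9.22% of all genes, with 7 unadjusted p under 0.05. The change from primed cells differed between the cultures for 0 of the 10 at day 5 (0.562% of all genes), 0 at day 12 (6.61%) and 0 at day 35 (5.66%), with 0, 1 and 2 unadjusted p under 0.05. At day 21 the log2 change was higher in cone culture for 2, against 4.39% of all genes called (3.23% higher). These were Rp1 (6.76 ± 1.79) and Rcvrn (5.78 ± 1.63). The mean of Rp1 fell in both cultures, less in cone (219 to 56.7 CPM) than in rod (344 to 0.819 CPM). That of Rcvrn rose in cone (0.467 to 6.78 CPM) and fell in rod (2.72 to 0.724 CPM).

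By day 35 most of the genes had fallen below their day 0 level. In cone culture 6 of the 10 were lower than in primed cells and 0 higher, against 57.7% of all genes called (26.5% lower), and in rod culture 8 were lower and 0 higher, against 55.6% (26.2% lower). Every library was below every primed library for 6 genes in cone culture, against 30.3% of all genes, and for 9 in rod culture, against 30.0%. Pdc had the most negative log2 changes, -8.06 ± 1.34 in cone culture and -11.37 ± 1.63 in rod culture. It went from 262, 126 and 294 CPM in cone primed cells to 0, 1.97 and 0.565 at day 35, and from 540.1, 501 and 235 CPM in rod primed cells to 0.0850, 0.0809 and 0.258. The changes of Rp1 were -4.61 ± 1.19 in cone culture and -9.62 ± 1.65 in rod culture. Those of Tulp1 were -4.92 ± 1.13 and -9.33 ± 1.67, and those of Aipl1 -3.96 ± 1.10 and -5.93 ± 1.53. These 4 genes, with Impg2 and Unc119, were called in both cultures, although the cone call of Impg2 was lost without cone day 35 replicate 1 (adjusted p = 0.0667) or replicate 3 (0.0531).

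Prph2 and Impg1, which started low, passed in rod culture and not in cone culture, and the difference between the cultures in that change was not called (adjusted p = 0.373 and 0.332, against 5.66% of all genes called). Prph2 changed by -6.06 ± 2.42 in rod culture (adjusted p = 0.0353). Impg1 was at least 34.4-fold lower in rod culture at day 35, with 0 counts against 74 over the 3 rod primed libraries. Both calls were lost without rod primed replicate 1 (0.211 and 0.0953) and without any 1 of the rod day 35 libraries (0.0722 to 0.0898), and that of Impg1 also without rod primed replicate 2 (0.0577). Rcvrn and Slc24a1 were the genes not called in either culture at day 35. Rcvrn was still 3.95 ± 1.17 above primed cells in cone culture at day 21 (adjusted p = 0.00607), as was Slc24a1 at 4.68 ± 1.47 (0.00932), against 52.6% of all genes called there (29.4% higher, 23.2% lower). The other 3 calls in cone culture at day 21 were lower, Unc119 (-2.46 ± 0.47), Pdc (-4.61 ± 1.04) and Tulp1 (-2.82 ± 0.99). Rcvrn was higher without overlap, against 31.5% of all genes, and Unc119, Pdc, Tulp1 and Rp1 were lower, against 26.8%. In rod culture 7 of the 10 were lower at day 21 and 0 higher, against 50.8% of all genes (23.6% lower), all but Rcvrn, Slc24a1 and Impg1, and 8 were lower without overlap, against 28.9%. The median log2 change to day 35 was -2.71 in cone culture and -6.00 in rod culture, against 0.03 and 0.04 over all genes. With Impg1 set to its bound the rod median was -5.52.

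In rod culture at days 21 and 35 Unc119 and Impg2 had more counts than the other genes in every library. Unc119 read 18.9, 18.6 and 17.8 CPM in cone culture at day 35 and 19.5, 22.1 and 18.5 in rod culture, which is 121 counts or more in every library of days 21 and 35. Its change from primed cells was -2.62 ± 0.47 in cone culture (adjusted p = 3.27e-05) and -2.39 ± 0.47 in rod culture (0.000106). Impg2 read 3.32, 5.87 and 3.52 CPM in rod culture at day 21 and 5.52, 3.15 and 4.33 at day 35, from 39 to 76 counts a library. At those times Pdc, Prph2, Tulp1 and Aipl1 had 11 counts or fewer in each rod library. Per kilobase of exon Unc119 was the highest of the 10 in rod culture at day 35 (8.17 ± 0.762 CPM per kb, SD, n = 3), followed by Rcvrn (0.752 ± 0.243) and Impg2 (0.467 ± 0.128), whose SDs overlap.

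Between days 21 and 35 no gene of the 10 passed the threshold in either culture. In cone culture 0 were called against 0.915% of all genes, with 5 unadjusted p under 0.05 and all 10 estimates lower (median -2.47). In rod culture 0 were called against 1.54%, with 0 unadjusted p under 0.05. From day 12 to day 21 in rod culture all 10 were called lower, against 11.2% of all genes (6.29% lower), and 9, all but Unc119, without overlap, against 9.97%. This rested on rod day 12 replicate 2: without it 2 of the 10, Pdc and Rp1, were called, the fit on the 6 compared libraries alone called 0, and 6 were called without rod day 21 replicate 3. Without both high day 12 libraries 4 were called, against 3.24% of all genes (1.91% lower). From day 12 to day 21 in cone culture 0 were called against 3.36% of all genes, with 1 unadjusted p under 0.05, that of Pdc, which was the 1 gene lower without overlap, against 8.59% of all genes. An F test over all 5 days called all 10 genes in cone culture, against 70.0% of all genes, and all 10 in rod culture, against 63.4%.

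Across the 33 libraries the 45 pairs of genes correlated in log2 CPM with r from 0.143 (Rcvrn with Unc119) to 0.982 (Rp1 with Tulp1), median 0.822. After removal of each group's mean the 45 values ran from 0.696 to 0.976 (median 0.882), so within groups the genes tended to vary together. The libraries that stood apart are included in these values. In some groups the highest library differed between genes. In rod culture at day 21 it was replicate 1 for 4 genes, replicate 2 for 2 and replicate 3 for 4. Genes of the same library share its depth and scaling, and the correlations are descriptions without a test. In cone day 5 replicate 2, cone day 12 replicate 2 and rod day 12 replicate 2 all 10 genes were at their group's highest, and in rod primed replicate 3, rod day 5 replicate 1, rod day 12 replicate 1 and cone day 21 replicate 1 all 10 were at their lowest.

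Among 11907 tested genes with a mean of at least 1 CPM, those whose profile over the 33 libraries was most like the mean of the 10 included Sag (r = 0.978), Rtbdn (0.972), Mpp4 (0.972), Cngb1 (0.968), Rp1l1 (0.965) and Slc17a7 (0.965). Sag encodes rod arrestin and Cngb1 a subunit of the rod cyclic nucleotide-gated channel. Crx ranked 86 (0.872) and Otx2 ranked 277 (0.806). Likeness was measured over all 33 libraries, 9 of them from day 0, so it reads the day 0 levels too. Crx was the gene most like Pdc (0.986), ranked 15 for Tulp1 (0.963), 28 for Rp1 (0.935), 62 for Impg2 (0.919), 64 for Aipl1 (0.911) and 214 for Unc119 (0.911), and ranked 254 for Impg1 (0.680), 291 for Prph2 (0.665), 745 for Slc24a1 (0.403) and 1503 for Rcvrn (0.294). After removal of group means the correlations of Crx with the 10 genes ran from 0.790 (Unc119) to 0.955 (Tulp1), with 0.798 for Rcvrn and 0.830 for Slc24a1.

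A companion list of 25 tested outer segment genes was compared in the same way. At day 21 cone culture was higher in 7 of the 25 and lower in 0, against 9.0% of all genes called (5.86% higher). The median log2 difference of the 25 was 1.56. The largest was Rp1l1, the close relative of Rp1 in the axoneme, at 5.84 ± 1.49 (adjusted p = 0.0126). At days 5, 12 and 35 0 of the 25 were called, against 9.28%, 10.1% and 12.3% of all genes. From primed cells to day 5 in cone culture 9 of the 25 rose and 0 fell, against 22.3% of all genes called (12.2% higher), among them Grk1, the rhodopsin kinase that recoverin restrains (6.23 ± 1.30). In rod culture, where 17.5% of all genes were called, 1 of the 25 rose by day 5, the retinol dehydrogenase Rdh12 (3.68 ± 0.93, adjusted p = 0.00704). By day 35 cone culture had 11 of the 25 lower than primed cells and 2 higher, against 57.7% of all genes called, and rod culture 13 lower and 1 higher, against 55.6%. Rp2, a ciliary trafficking protein found in many cell types, was higher in both, by 0.68 ± 0.15 and 0.62 ± 0.15.

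Relatives of the 10 genes from the same families were also compared. Of 16 tested relatives, 7 were lower and 5 higher at day 35 than in primed cells in cone culture, against 57.7% of all genes called, and 6 were lower and 4 higher in rod culture, against 55.6%. Tulp3, a general ciliary relative of Tulp1, rose by 1.55 ± 0.15 in cone culture and by 0.96 ± 0.15 in rod culture. Hpcal1, a neuronal calcium sensor of the recoverin family, rose by 2.47 ± 0.25 and 1.52 ± 0.24. Unc119b had means between 23.9 and 30.8 CPM in all 11 groups, with 1 call from primed cells, at day 5 in rod culture (-0.32 ± 0.11, adjusted p = 0.0427). Among the relatives lower in both cultures were Rp1l1 and Tub. Rom1, the disc rim partner of Prph2, was lower in rod culture (-2.70 ± 0.88, adjusted p = 0.0112). Reads that aligned to more than 1 place, 13.2% to 20.6% of reads, are not in the counts, so stretches shared by close relatives are not represented.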

How the data were processed

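The 33 RNA-seq libraries, in 11 groups of 3, were grouped by treatment and day per the labels. Per the submitters' processing notes HISAT2, HTSeq, StringTie and build GRCm38 were used, with versions and settings not given in the sources used here. The deposited values used are raw read counts per gene, with 5 summary lines left out of library sizes; genes took 26.9% to 34.9% of the reads listed. The deposited TPM values, from the authors' abundance tables, served as an alternative only: across genes they correlated weakly with the counts (Spearman 0.336 to 0.440), and 31.7% to 45.3% of genes with 10 or more counts were listed at 0 TPM, for a reason not tested. Reads carry no molecular identifiers, so floors and counting intervals cover counting error only.

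Counts were filtered with filterByExpr (minimum count 10), scaled by TMM and fitted as 1 quasi-likelihood model of all 33 libraries in edgeR 4.0.16 (limma 3.58.1, R 4.3.3, Python 3.11.15), tested on simulated data. The threshold in each of 29 comparisons was a p of 0.05 after Benjamini-Hochberg adjustment over 18150 genes. Over all tested genes 5 of 15 same-numbered cone and rod pairs deviated together with r over 0.1, the day 12 replicate 2 pair the most (0.513); since not every pair did, numbers were not used as pairs. The 10 genes, the lists and the rule for named genes were chosen with earlier results of these data known. Leaving out both high day 12 libraries was chosen after seeing the data, and these libraries were picked on the levels of these genes. The rule names all 10 genes, their relatives, the companion genes with the largest called changes and the genes with the most similar profiles; Unc119b, Tub, Rp2 and Rdh12 were singled out after their values were seen. A few genes picked by this rule are left out here. The labels name no batch. Alternatives were other scalings, filters, tools and library sets, the replicate number as a block, TPM, and each library left out. FPKM and coverage were not used.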

Additional observations from a re-analysis of the deposited data

Results flagged for a closer look

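In all, 3 results were singled out because the difference between cone and rod culture itself changed with time, by a test of that change. For Rp1 the cone minus rod difference changed over the 5 days in an F test (adjusted p = 0.0325, against 9.22% of all genes called), and it was called under 31 of 38 alternatives that used counts, with adjusted p from 0.00353 to 0.179. From primed cells to day 21 the log2 change of Rp1 was 6.76 ± 1.79 higher in cone than in rod culture. Its adjusted p was 0.0271, against 4.39% of all genes called. This call held under 13 of 20 alternatives (adjusted p from 0.00136 to 0.0869). The mean of Rp1 fell over that span in both cultures, by less in cone culture. The change of Rcvrn over the same span was 5.78 ± 1.63 higher in cone culture (adjusted p = 0.0405), and it was called under 9 of 20 (0.00223 to 0.114). The mean of Rcvrn was higher in rod than in cone primed cells (2.72 ± 1.97 against 0.467 ± 0.438 CPM, SD, n = 3). That difference was not called, and the libraries overlapped, with 0.808 CPM in rod primed replicate 3 and 0.943 in cone primed replicate 3. The cone primed values rest on 3, 1 and 9 counts. At day 21 the mean of Rcvrn was lower in rod than in cone culture (0.724 ± 0.237 against 6.78 ± 4.93 CPM). All 3 results use cone day 21 replicates 2 and 3, which held the genes at 8.73 CPM or more, while replicate 1 held Rp1 at 3.02 and Rcvrn at 1.18 CPM. Over the span to day 21, neither gene was called without cone day 21 replicate 3 (adjusted p = 0.0517 for Rp1 and 0.0794 for Rcvrn), any 1 cone primed library, rod day 21 replicate 2 or rod day 21 replicate 3.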

How the results depend on the processing

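Counts of the 10 genes called are given where they moved by over 1.5 times or away from 0. DESeq2 called 1 for cone minus rod at day 12, 4 at day 35, 1 for rod primed minus untreated, and 6 and 2 for the cone minus rod change from primed to days 21 and 35. Voom with sample weights called 5, 2 and 2 for day 5, day 21 and the mean of cone minus rod, 1 for rod priming, 7 for cone day 5 minus primed, 7 for cone day 12 minus day 5, 4, 6, 9 and 2 in rod culture for day 5 minus primed, day 12 minus primed, day 12 minus day 5 and day 21 minus day 12, 0 for the F test of cone minus rod with day and 0 for the primed to day 21 change. With no filter the counts were 1 for cone minus rod at day 12, 4 for rod day 12 minus primed and 4 for the F test. The fit on the compared libraries alone gave 5 and 2 for cone minus rod at days 5 and 21, 9 for cone day 5 minus primed, 5 for cone day 12 minus day 5, 5, 0 and 0 for rod day 5 minus primed, day 12 minus primed and day 21 minus day 12, and 5 and 2 for the primed to day 21 and day 35 changes. The fit with the replicate block gave 1 for rod priming, 7 for cone day 12 minus day 5, 4 for rod day 12 minus primed and 3 for the F test, and left the other counts within 1.5 times. The same-numbered libraries share only a number (r from -0.226 to 0.513 over 15 pairs).

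Without both high day 12 libraries the counts were 8 and 9 for cone day 12 minus primed and minus day 5, 6 and 9 for rod, 4 for rod day 21 minus day 12 and 5 for the F test. On deposited TPM plus 1, cone minus rod at day 21 and over the mean gave 0, cone days 12, 21 and 35 minus primed 0, cone day 12 minus day 5 6, any change with day 6 in cone and 1 in rod culture, rod days 5, 12, 21 and 35 minus primed 0, 1, 0 and 0, rod day 21 minus day 12 0, and the F test and primed to day 21 change 0. With a pseudocount of 0.1 these were 0 and 0, 0, 0 and 0, 1, 3 and 2, 0, 1, 1 and 1, 0, and 0 and 0, with 1 for cone day 5 minus primed. Leaving out each library gave 0 to 2 for cone minus rod at day 12, 0 to 7 at day 21, 2 to 9 over the mean, 1 to 4, 3 to 4, 4 to 5 and 5 to 6 for cone days 5, 12, 21 and 35 minus primed, 2 to 7 for cone day 12 minus day 5, 0 to 2, 2 to 5, 6 to 7 and 6 to 8 for rod days 5 to 35 minus primed, 0 to 8 for rod day 12 minus day 5, 2 to 10 for rod day 21 minus day 12, 0 to 7 for the F test, and 0 to 1 and 0 to 3 for the changes to days 12 and 21. The causes were not tested. Leaving out a library also makes the sample smaller, and the part of this was not tested either.

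Signs turned in these values, each called in the report or under the alternative; those called in neither also turned, 63 and 56 of them on TPM plus 0.1 and plus 1, 28 without both high libraries, 27 under voom, 20 without rod day 12 replicate 2 and 11 with the replicate block. Leaving out each library, Impg2 ranged from -1.72 to 2.80 for cone minus rod at day 12, and Prph2 and Impg1 from -3.49 to 1.02 and from -3.46 to 1.17 for rod day 12 minus day 5, with 2.80, -3.49 and -3.46 without rod day 12 replicate 2. Without both high libraries Prph2, Impg1 and Slc24a1 were -3.44, -3.41 and -2.53 there and Aipl1 -2.10 for rod day 12 minus primed. Voom gave -2.36, -2.30 and -1.71 for Prph2, Impg1 and Slc24a1 in rod day 12 minus day 5. On TPM plus 1 and plus 0.1, Slc24a1 was -0.17 and -0.34 for cone minus rod at day 21 and -0.0475 and -0.16 for cone day 21 minus primed, Impg1 -0.24 and -0.70 and Aipl1 -0.0906 and -0.30 over the mean of days, and Impg1 0.60 and 2.59 for rod day 35 minus primed. Cone minus rod at day 0, cone priming and the changes between days 21 and 35 gave 0 calls under every alternative. Rod day 21 and 35 libraries hold few counts of most of these genes, which limits the precision there.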
